A study of Mus musculus with 2 samples.

Results

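The 10 genes described here are the posterior members of 3 Hox clusters that were measured in mouse colon epithelium: Hoxa9, Hoxa10, Hoxa11, Hoxa13, Hoxb9, Hoxb13, Hoxd10, Hoxd11, Hoxd12 and Hoxd13. They were chosen by symbol from the 31053 genes on the feature list, which holds 39 Hox genes in all. The study made 2 single-cell libraries (10x Genomics, 3' v2), a single one for each group. Untreated c-Kit-creERT2 mice gave the library with the whole-epithelium label. For the library with the GFP label, c-Kit-creERT2;Rosa26-mTG mice received tamoxifen intraperitoneally 1 time, at 1 mg for each 20 g, and GFP-positive cells were taken by flow sorting. Both genotypes carry a tamoxifen-inducible Cre named for the Kit gene, and GFP marks cells in which that Cre had acted and their progeny, so the sorted library holds only a part of the epithelium. The labels describe the starting tissue of both as the entire colon, from which crypts were freed with EDTA and dissociated with TrypLE. They do not give the number, age or sex of the mice. The question asked of the members was whether the 2 libraries differed in the colon segment their cells came from.

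Hox genes encode homeodomain transcription factors that lie in clusters on the chromosome in the order in which they are used along the body axis, the genes of highest number being used nearest the tail. In the hindgut the group 13 genes (Hoxa13, Hoxb13 and Hoxd13) mark the most posterior endoderm, and group 9 and 10 genes are used over a wider stretch. The adult epithelium keeps part of this pattern, so posterior Hox transcripts are commonly read as a sign of position in the colon.

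The members lie at 3 loci of the mm10 (GRCm38) assembly, by the GENCODE vM21 annotation. Hoxd13 (chromosome 2, 74668310 to 74671599), Hoxd12 (74675013 to 74677705), Hoxd11 (74679557 to 74687016) and Hoxd10 (74691924 to 74695105) lie on the plus strand. Hoxa13 (chromosome 6, 52257694 to 52260880), Hoxa11 (52242106 to 52245810), Hoxa10 (52231197 to 52240854) and Hoxa9 (52223100 to 52231089) lie on the minus strand. Hoxb13 (chromosome 11, 96194316 to 96197447) and Hoxb9 (96271457 to 96276595) lie on the plus strand, with Hoxb8 to Hoxb3 beyond Hoxb9. Hoxa11 overlaps the antisense gene Hoxa11os, and Hoxd10 and Hoxd11 overlap the gene model Gm28309 on their own strand. The strand setting of the counting is not given in the sources used here, so the reads of these genes could be shared with their partners.

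The 250 bases before the RefSeq starts (GRCm38.p6) of Hoxd13 and Hoxa13 are shown because these group 13 genes moved together with Hoxb13 over cells and clusters, as described below. Capitals mark CCAAT, searched on both strands and chosen after the windows had been read. The Hoxd13 window is chr2:74667975-74668224 on the plus strand and the Hoxa13 window is chr6:52260881-52261130 on the minus strand.
Hoxd13: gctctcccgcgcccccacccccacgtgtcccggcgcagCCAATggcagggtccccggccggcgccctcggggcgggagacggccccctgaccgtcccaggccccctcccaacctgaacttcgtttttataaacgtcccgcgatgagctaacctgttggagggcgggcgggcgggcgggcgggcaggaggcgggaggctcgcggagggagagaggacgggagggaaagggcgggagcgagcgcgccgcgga
Hoxa13: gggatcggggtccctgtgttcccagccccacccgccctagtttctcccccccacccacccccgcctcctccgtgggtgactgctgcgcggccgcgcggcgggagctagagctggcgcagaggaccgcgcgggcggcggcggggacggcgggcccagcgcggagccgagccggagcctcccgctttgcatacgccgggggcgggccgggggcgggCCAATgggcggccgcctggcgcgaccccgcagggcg

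Both windows are rich in G and C (74.4% in Hoxd13, 80.0% in Hoxa13). CCAAT was in the windows of 5 of the 8 members with an entry and in 33.9% of all 32851 windows of that length. The letters TTTACGA, a HOX13 motif, were in none of the 8 members and in 0.478% of all windows. The letters TTTATGG, a CDX2 motif, were in none of the 8 and in 2.43% of all. A missing match says only that these letters are not in this window.

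After filtering, 7762 barcodes (55.6%) of the library with the whole-epithelium label were kept, with a median of 14160 UMIs (unique molecular identifiers, each counting 1 captured transcript). In the library with the GFP label 5767 (42.5%) were kept, with a median of 15821 UMIs. The kept cells held 137934573 and 108539028 UMIs. The matrices are crossed with the barcode lists in the records and were assigned by size, and every direction below would turn with the reverse assignment. The epithelial gene Epcam had a UMI in 97.6% and 99.2% of kept cells. Xist, which female cells express, was at 0.0653 and 750 CPM (UMIs per 1000000 UMIs), and the Y-linked gene Ddx3y at 35.4 and 0 CPM. By these genes the cells of the library with the whole-epithelium label were male and those of the library with the GFP label female. Sex and label thus cannot be told apart in the ratios below. The libraries shared 60 barcodes, 38 and 31 of them in kept cells. Clusters made without any Hox gene or gene of the proximal, distal and small intestine lists were given names by marker genes: stem/TA-like (stem cells and their dividing progeny, 1587 and 952 cells), goblet-like (1159 and 930), colonocyte-like (2154 and 1585) and enteroendocrine-like (335 and 109). The naming markers included Aqp4, Ang4 and Insl5, which are also on those lists. The gut identity factors Osr2 and Cdx2 were not barred from clustering. Of 36 clusters, 29 drew over 95% of their cells from 1 library. The stem/TA-like, goblet-like and colonocyte-like classes are thus held mostly by different clusters in the 2 libraries. Enteroendocrine-like cells of both libraries lay in c24 (118 and 80 cells) and c27 (131 and 29 cells). With 1 library per group no test was possible, and cells are not replicates. Intervals are 95% and cover counting error only. Differences past 2-fold are counted as called. Fewer molecules per cell and fewer cells with a gene cannot be told apart in sums over cells.

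Over all kept cells the members differed little between the libraries and in no single direction. Hoxb13, the member with most UMIs, stood at 128.5 CPM (126.6 to 130.4) in the library with the whole-epithelium label and 98.8 CPM (96.96 to 100.7) in the library with the GFP label. This is a log2 ratio of GFP to whole epithelium of −0.38 (−0.41 to −0.34). Hoxb9 was also lower in the library with the GFP label, at 67.9 and 60.1 CPM (−0.18), and Hoxa13 was at 21.1 and 20.0 CPM (−0.07, with an interval that reached 0.006). The 4 HoxD members and the HoxA genes of groups 9 to 11 were higher in the library with the GFP label. Hoxd13 was at 7.04 and 9.36 CPM (0.41), Hoxd11 at 2.21 and 4.34 CPM (0.97, 0.76 to 1.19), and Hoxd10 at 0.624 and 1.07 CPM (0.78). Hoxa9 was at 22.6 and 29.6 CPM (0.39), while Hoxa10 was at 29.2 and 29.9 CPM (0.03) with an interval over 0. Hoxa11 (184 and 165 UMIs) and Hoxd12 (33 and 34 UMIs) had intervals that included 0. In all 7 members were higher and 3 lower, and none of the 10 was past 2-fold, where 3.09% of 13843 genes were past it higher and 7.76% lower. With at most 10% mitochondrial UMIs Hoxd11 (1.28) and Hoxd10 (1.05) were past 2-fold, as was Hoxd11 (1.01) with at least 5000 UMIs per cell, and with cells thinned to 2000 UMIs they stood at 0.28 and −0.28. The members' median log2 ratio was 0.29, beside −0.02 over all genes tested.

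**Figure D1:**
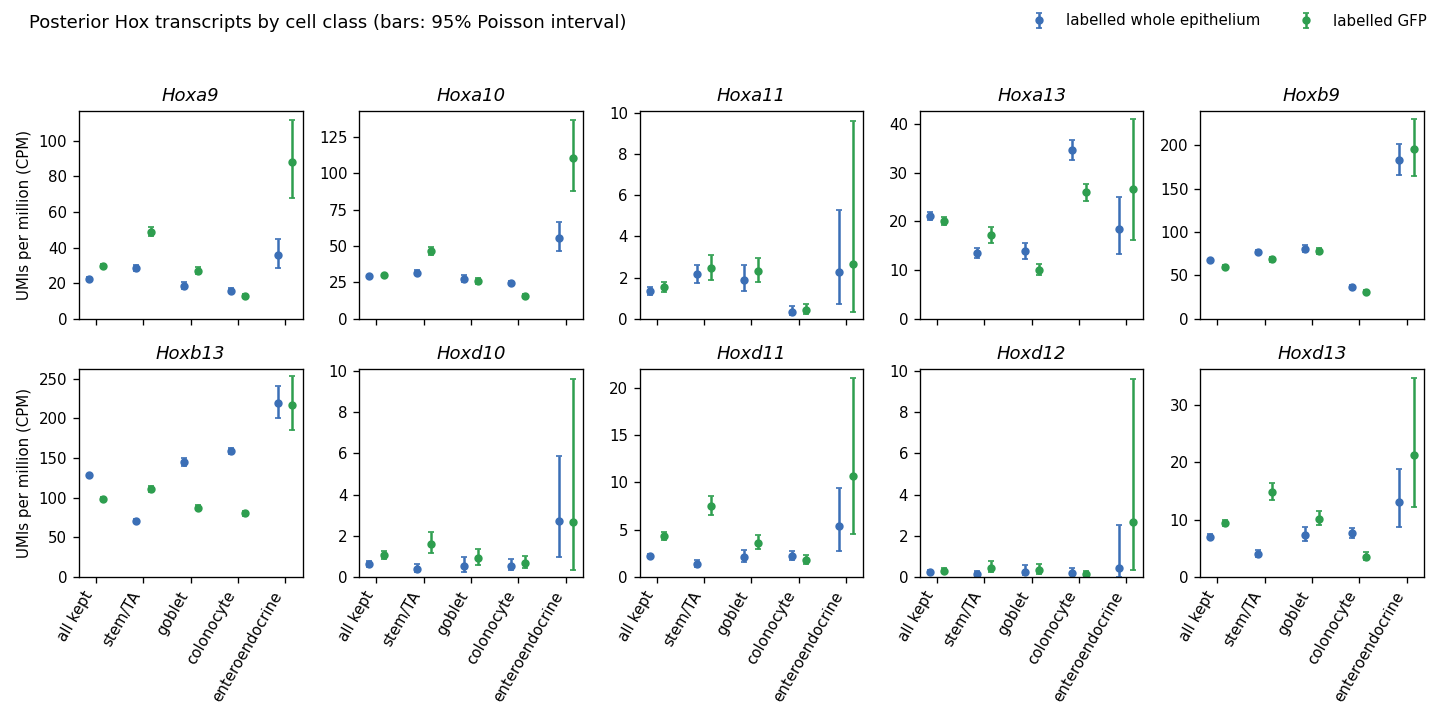
CPM of each posterior Hox gene (vertical axis from 0, its own scale per gene) over all kept cells and in 4 marker-named classes (horizontal axis). Blue points are the library with the whole-epithelium label, green points the library with the GFP label, and bars 95% Poisson intervals; Hoxb13 is higher in green in the stem/TA-like class (111 against 70.3 CPM) and lower in green in the colonocyte-like class (80.3 against 159 CPM).

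The direction depended on the cell class. In stem/TA-like cells, the dividing compartment of the crypt, Hoxb13 was at 70.3 CPM (67.9 to 72.8) in the library with the whole-epithelium label and 111 CPM (107 to 115) in the library with the GFP label, a log2 ratio of 0.66 (0.59 to 0.73). Hoxd13 was at 4.04 and 14.8 CPM, Hoxd11 at 1.38 and 7.51 CPM, and Hoxd10 at 0.396 and 1.62 CPM. The log2 ratios were 1.87 (1.62 to 2.13), 2.44 (2.03 to 2.87) and 2.04 (1.22 to 2.91). These 3 genes of 1 cluster were the members past 2-fold higher among the 9 with at least 50 UMIs, where 2.91% of 11943 genes were, and none was past 2-fold lower, where 3.67% were. Hoxa9 (28.5 and 49.0 CPM, 0.78), Hoxa10 (31.7 and 46.5 CPM, 0.55) and Hoxa13 (13.5 and 17.2 CPM, 0.34) were higher by less. Hoxb9 was lower, at 77.1 and 68.5 CPM (−0.17). How the cells were clustered moved the sizes: with coarser clusters (resolution 0.5) the ratio of Hoxb13 was 2.15 and that of Hoxd13 4.13, and with the libraries clustered separately they were 1.13 and 2.24. With cells thinned to 2000 UMIs the ratio of Hoxd10 was 0.70, no longer past 2-fold, and those of Hoxd13 and Hoxd11 were 1.55 and 2.16. Markers of other cells moved with this class. All 10 goblet markers were higher in the stem/TA-like cells of the library with the GFP label (summed 856 and 2591 CPM), and deep crypt secretory markers summed to 115 and 1820 CPM. Their part in the Hox values was not tested.

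In colonocyte-like cells, the absorptive cells, the order was reversed. Hoxb13 was at 159 CPM (155 to 163) in the library with the whole-epithelium label and 80.3 CPM (77.2 to 83.4) in the library with the GFP label, a log2 ratio of −0.98 (−1.05 to −0.92). Hoxd13 was at 7.62 and 3.56 CPM (−1.10, −1.43 to −0.78), Hoxa10 at 24.6 and 15.6 CPM (−0.66), and Hoxa13 at 34.7 and 25.97 CPM (−0.42). All 7 members with at least 50 UMIs were lower in the library with the GFP label. Hoxd13 alone was past 2-fold lower, where 5.70% of 11134 genes were, and 2.55% were past it higher. The median of those 7 was −0.42, beside −0.11 over all genes tested in this class. With coarser clusters the ratio of Hoxb13 was −0.44 and that of Hoxd13 −0.37, and with at most 10% mitochondrial UMIs that of Hoxd13 was −0.22. All 10 goblet markers were higher in the colonocyte-like cells of the library with the GFP label too (summed 955 and 2196 CPM). Deep crypt secretory markers summed to 148 and 1724 CPM, and the part of both was not tested.

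Goblet-like cells, which secrete mucus, split by gene. Hoxb13 was at 145 CPM (140 to 150) and 87.4 CPM (84.0 to 91.0), lower in the library with the GFP label (−0.73, −0.81 to −0.65), and Hoxa13 was lower as well, at 13.9 and 10.1 CPM (−0.47). Hoxa9 (18.5 and 27.0 CPM, 0.54), Hoxd11 (2.15 and 3.64 CPM, 0.76) and Hoxd13 (7.37 and 10.2 CPM, 0.46) were higher there. Hoxb9 was at 80.7 and 78.4 CPM and Hoxa10 at 27.5 and 25.9 CPM, both with intervals over 0. Deep crypt secretory markers summed to 15780 and 47987 CPM in these cells, and their part was not tested. None of the 8 members with at least 50 UMIs was past 2-fold, where 2.29% of 11649 genes were past it higher and 3.75% lower.

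Enteroendocrine-like cells, which make hormones, had the highest CPM of Hoxb13 and Hoxb9 of the 4 classes in both libraries. Hoxb13 was at 220 and 217 CPM (−0.02, −0.28 to 0.24) and Hoxb9 at 183 and 196 CPM (0.10, −0.19 to 0.37), so neither differed beyond counting error. Hoxa9 was at 36.1 and 87.9 CPM (1.29, 0.79 to 1.77) and Hoxa10 at 55.9 and 110.5 CPM (0.98, 0.57 to 1.40). Hoxa9 was the 1 member of 5 with at least 50 UMIs past 2-fold higher, where 2.57% of 6997 genes were, and 4.19% were past it lower. In these cells goblet markers, of which 9 reached 50 UMIs and all 9 were higher in the library with the GFP label, summed to 3234 and 9212 CPM, and deep crypt secretory markers to 919 and 8456 CPM. Their part was not tested. These cells were shallow, with median depths of 4155 and 3590 UMIs, and the sign of Hoxb13 changed with the setting, from −1.15 with each cell thinned to 2000 UMIs to 0.36 with at least 5000 UMIs per cell.

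Within the group 13 genes Hoxb13 made up most UMIs in every class. Its share of the summed Hoxa13, Hoxb13 and Hoxd13 UMIs over all kept cells was 82.0% (81.5 to 82.6) in the library with the whole-epithelium label and 77.1% (76.4 to 77.8) in the library with the GFP label. It was 87.2% and 81.2% in goblet-like cells, 79.0% and 73.1% in colonocyte-like cells, and 80.0% and 77.7% in stem/TA-like cells. The share was lower in the library with the GFP label in each of these classes, though in stem/TA-like cells the sign turned with the clustering (8.77 percentage points higher at resolution 0.5). A share within the 3 genes does not move with library scaling, but UMIs of different genes are captured unevenly, so it is not a share of molecules.

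The spread among clusters within a library was wider than the difference between libraries. Over the 17 named epithelial clusters of the library with the whole-epithelium label Hoxb13 ran from 7.78 CPM in c10 to 518 CPM in c12, both colonocyte-like. Over the 8 of the library with the GFP label it ran from 6.14 CPM in c17, colonocyte-like, to 258 CPM in c18, stem/TA-like. In both libraries the stem/TA-like, goblet-like and colonocyte-like classes each held clusters of high and of low Hoxb13. In the library with the whole-epithelium label the stem/TA-like clusters stood at 312 CPM (c21), 41.6 CPM (c14), 22.1 CPM (c6) and 9.64 CPM (c16). In the library with the GFP label they stood at 258 CPM (c18) and 32.1 CPM (c4). Goblet-like clusters ran from 32.5 to 360 CPM and stood at 19.8 and 152.5 CPM, respectively. With a line drawn at 100 CPM after the values were seen, the clusters above it held 18.2% and 35.6% of stem/TA-like cells, 34.5% and 48.7% of goblet-like cells, and 33.7% and 27.2% of colonocyte-like cells. The library with the GFP label thus had the larger share of cells on the high side in 2 classes and the smaller in 1. Cluster c25 (184 cells), goblet-like in the library with the whole-epithelium label, stood just below the line, at 96.4 CPM. With c25 counted as high, the goblet-like order would turn.

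Hoxd13 was split along the same line. It was at 21.6 CPM in c21 and 40.1 CPM in c18, the high stem/TA-like clusters, against 1.87 CPM in c14 and 1.11 CPM in c4. In the colonocyte-like clusters it was at 27.5 CPM in c12 and 11.3 CPM in c11, against 0.719 CPM in c3 and 0.990 CPM in c2. Hoxb9 had its highest values in enteroendocrine-like clusters (233 CPM in c27 and 199 CPM in c24). It was lower in c12 (20.5 CPM) than in c10 (54.1 CPM), the reverse of Hoxb13. The colonocyte-like clusters did not keep that order throughout. Hoxb9 was highest in c19 (56.5 CPM) and lowest in c22 (8.24 CPM), which stood next below c12 in Hoxb13. Over clusters, Pearson's r of log2(CPM + 1) with Hoxb13 was 0.81 and 0.89 for Hoxd13, 0.81 and 0.84 for Hoxd11, 0.72 and 0.79 for Hoxa13, and 0.52 and 0.51 for Hoxa10 (17 and 8 clusters). It was −0.17 and −0.10 for Hoxb9. Clusters of 1 library share its depth and source, so these values are descriptions.

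The genes most like Hoxb13 over these clusters, by the lower r of both libraries among 10393 genes, included Prkacb (0.86 and 0.94), a catalytic subunit of protein kinase A, Hoxd13 (0.81 and 0.89), Adh1, an alcohol dehydrogenase, Cd9, a tetraspanin, Ctse, an aspartic protease, Tnip3 and St3gal6, a sialyltransferase. The genes most opposed to it, named after their values were seen, included Defb37 (−0.84 and −0.80), a beta-defensin, and Hoxb5 (−0.73 and −0.79), a gene of the same cluster. For Hoxd13 the most alike included AI854703, Pde7a and Hoxb13, and for Hoxa13 they were Hif1a, Ggh, Nxpe4 and Tgm3.

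Because most clusters drew nearly all their cells from 1 library, clusters were also paired by their profiles, each being the other's best match. The profiles held 2000 variable genes, without Hox genes or genes of the position lists. This pairing was chosen after the clusters had been seen. It gave 10 pairs, 1 of them T/NK-like. Hoxb13 was lower in the library with the GFP label in the other 9, in 7 of them with an interval below 0. The high stem/TA-like pair c21 and c18 stood at 312 and 258 CPM (−0.28, −0.36 to −0.19) and the low pair c14 and c4 at 41.6 and 32.1 CPM (−0.37). The high colonocyte-like pair c12 and c11 stood at 518 and 209 CPM (−1.31), and its low pair c3 and c2 at 58.2 and 51.9 CPM (−0.17). The goblet-like pairs were at 281 and 152.5 CPM (c23 and c8, −0.88) and at 32.5 and 19.8 CPM (c9 and c7, −0.72). An unnamed pair, c15 and c5, was at 451 and 135 CPM (−1.74). The higher Hoxb13 of the stem/TA-like class in the library with the GFP label was therefore not seen in either of its cluster pairs. These pairs leave out c6 and c16 (525 and 366 cells) of the library with the whole-epithelium label, which had no match. They were the lowest of that class in Hoxb13, and the paired c21 and c14 held 287 and 400 cells. The high cluster held 18.2% of the class in the one library and 35.6% in the other.

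Other members followed Hoxb13 in some pairs and not in others. Hoxa9 was higher in the library with the GFP label in 8 of the 9 pairs with at least 20 UMIs, 4 of them with an interval above 0, for example at 44.0 and 53.5 CPM in c21 and c18 (0.28) and at 15.5 and 25.4 CPM in c9 and c7 (0.71). The exception was c12 and c11, at 17.1 and 11.5 CPM (−0.57). Hoxd13 was higher in c18 than in c21 (40.1 and 21.6 CPM, 0.89, 0.62 to 1.17) and lower in c11 than in c12 (11.3 and 27.5 CPM, −1.28, −1.66 to −0.92). Hoxd11 was also higher in c18 (21.1 and 7.92 CPM, 1.41). Hoxa13 was lower in 6 of 9 pairs, 4 with an interval below 0, among them c18, c11 and c8 (−0.54, −0.79 and −0.98). It was higher in c4 than in c14 (0.28) and in c0 than in c25 (0.88), both with an interval above 0. Hoxa10 was lower in 6 of 10 pairs, 4 with an interval below 0 and 2 of the higher ones with an interval above it.

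**Figure D2:**
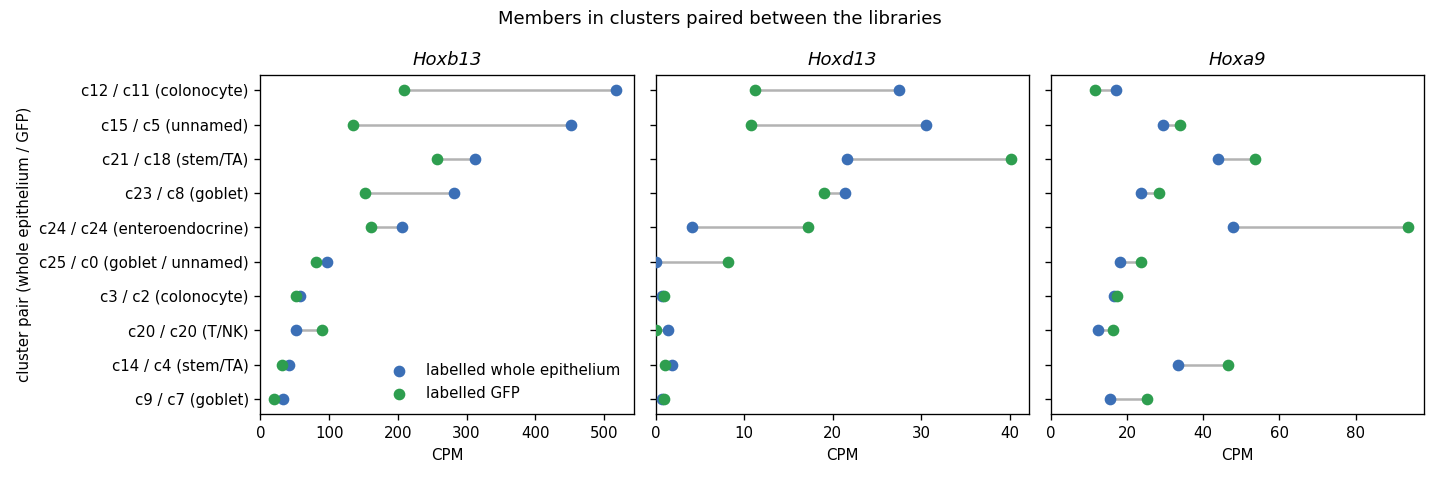
CPM of Hoxb13, Hoxd13 and Hoxa9 (horizontal axes from 0) in 10 pairs of clusters matched between the libraries (rows, ordered by Hoxb13). Blue points are the library with the whole-epithelium label and green points the library with the GFP label; for Hoxb13 the green point lies to the left in 9 pairs, the T/NK-like pair being the exception.

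The split was also seen cell by cell. Each cell was thinned to 10000 UMIs, and cells below that depth were left out (200 and 106 stem/TA-like, 479 and 149 goblet-like, 924 and 296 colonocyte-like). In stem/TA-like cells 26.8% (372 cells) and 42.7% (361 cells) had a Hoxb13 UMI, against 34.9% and 52.7% of all cells of the class without thinning. In goblet-like cells it was 53.5% and 37.3%, and in colonocyte-like cells 47.5% and 40.7%. In the same cells before thinning the shares of those 2 classes were 62.1% and 54.4%, and 55.2% and 51.4%, in the same order. Over all cells of the class, shallow ones included and not thinned, they were 48.9% and 50.2%, and 45.4% and 49.0%. The order turned there, at unequal median depths (15615 and 26208 UMIs in goblet-like, 12638 and 18437 in colonocyte-like cells). With all cells of the class thinned to 1000 UMIs the shares were 12.4% and 7.42%, and 12.2% and 8.39%, in the order seen at 10000 UMIs. Cells with at least 3 Hoxb13 UMIs made up 27.2% and 12.1% of colonocyte-like cells and 11.4% and 17.7% of stem/TA-like cells. The variance over the mean was 3.77 and 2.59 in stem/TA-like cells and 3.99 and 2.17 in colonocyte-like cells, where a single Poisson rate would give a ratio of 1. Hoxb9 was nearer to that, at 1.20 and 1.17 in stem/TA-like cells.

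**Figure D3:**
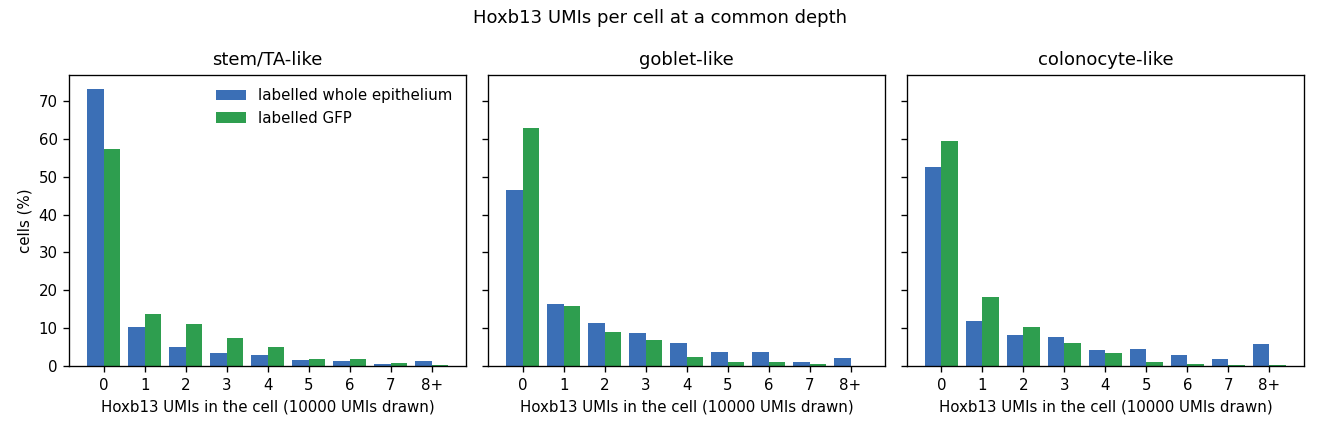
Share of cells (vertical axis, percent, from 0) by their number of Hoxb13 UMIs after thinning to 10000 UMIs per cell (horizontal axis, 8 or more joined), in 3 classes. Blue bars are the library with the whole-epithelium label and green bars the library with the GFP label; the blue bars of the colonocyte-like class reach further right, and 52.5% of its blue cells and 59.4% of its green cells had none.

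Cells that should lack the gene also had UMIs of it, whose source (free RNA or doublets, for example) was not tested. T/NK-like lymphocytes, which are not hindgut epithelium, held 0.304 Hoxb13 UMIs per cell in the library with the whole-epithelium label (237 cells, median depth 4152) and 0.220 in the library with the GFP label (50 cells, median depth 1865). With every cell thinned to 1000 UMIs, 3.38% and 4.0% of them had a Hoxb13 UMI. At that depth the share was 6.62% and 9.35% in stem/TA-like, 12.4% and 7.42% in goblet-like and 12.2% and 8.39% in colonocyte-like cells. Clusters c10, c16 and c17 held 0.0844, 0.284 and 0.140 Hoxb13 UMIs per cell, below the T/NK-like level of their own library, at median depths of 6826, 25912 and 21072 UMIs, and are not read as expressing the gene. Cells without an Epcam UMI gave 0.141% and 0.0653% of the Hoxb13 UMIs, where they held 0.340% and 0.0844% of all UMIs. Fibroblast markers, of which 4 of 8 reached 50 UMIs, summed to 12.2 and 3.05 CPM.

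Inside each library, cells with a Hoxb13 UMI differed from cells of the same class without one in the other members, at 10000 UMIs per cell. Hoxd13 had a UMI in 10.5% against 0.788% of stem/TA-like cells of the library with the whole-epithelium label and in 21.6% against 1.86% of those of the library with the GFP label. In goblet-like cells it was 7.97% against 0.949% and 18.2% against 1.43%, and in colonocyte-like cells 11.1% against 1.08% and 5.34% against 0.523%. As a log2 ratio of CPM, Hoxd13 was 3.50 to 4.15 higher in cells with a Hoxb13 UMI in all 6 combinations of class and library. Hoxd11 was 2.42 to 3.91 higher in the 5 with at least 20 UMIs. Hoxa13 was higher in all 6 (0.41 to 2.04), with 1 interval, that of stem/TA-like cells of the library with the GFP label, reaching 0. Hoxa9 and Hoxa10 differed in sign between combinations (−0.09 to 0.83 and −0.32 to 1.10).

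Hoxb9, the neighbour of Hoxb13 in its own cluster, went the other way. It had a UMI in 37.1% of stem/TA-like cells with Hoxb13 against 57.2% of those without in the library with the whole-epithelium label, and in 34.6% against 49.3% in the library with the GFP label. Its log2 ratio lay between −1.27 and −0.66, with all 6 intervals below 0. Before thinning the cells with a Hoxb13 UMI were the shallower ones in all 6 combinations, from 26446 against 27687 UMIs (medians) in stem/TA-like to 19231 against 22766 in colonocyte-like cells of the library with the whole-epithelium label. Its part in the difference left after thinning was not tested.

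The other HoxB genes were lower still in cells with a Hoxb13 UMI. Hoxb3 to Hoxb8, grouped by cluster after the values had been seen, summed to 23.9 CPM in stem/TA-like cells with a Hoxb13 UMI and 175 CPM in those without in the library with the whole-epithelium label, a log2 ratio of −2.87 (−3.19 to −2.56). In the library with the GFP label they summed to 18.0 and 153 CPM (−3.08, −3.47 to −2.72). In goblet-like cells the ratios were −2.21 and −2.30, and in colonocyte-like cells −1.75 and −2.04. Hoxb3, Hoxb4, Hoxb5, Hoxb6 and Hoxb7 were each lower in all 6 combinations, with all intervals below 0. Hoxb8 was lower in 4 of 5 and stood at 0.52 in colonocyte-like cells of the library with the whole-epithelium label, with an interval over 0.

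Genes of the HoxA cluster of like number had no common direction. Hoxa3, Hoxa5 and Hoxa7 summed to 102 CPM with and 71.0 CPM without a Hoxb13 UMI in stem/TA-like cells of the library with the whole-epithelium label (0.52), and to 105 and 134 CPM in the library with the GFP label (−0.35). In the other classes they lay between −0.09 and 0.37. The HoxD members summed to 21.5 against 1.48 CPM and to 53.5 against 4.33 CPM in stem/TA-like cells (3.86 and 3.63). Cells with Hoxb13 thus held more of the posterior HoxD genes and less of the anterior HoxB genes, in each class and library.

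**Figure D4:**
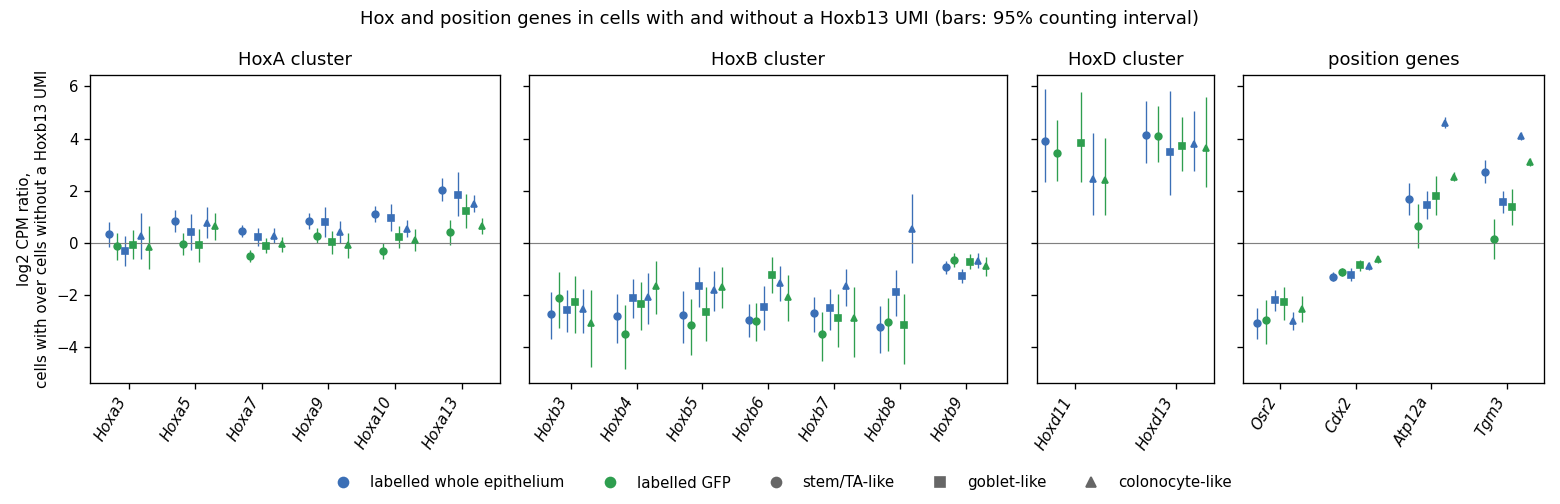
Log2 ratio of CPM between cells with and cells without a Hoxb13 UMI (vertical axis), 1 point per class and library with at least 20 UMIs. The horizontal axis has Hox genes by cluster, the gut identity factors Osr2 and Cdx2, and Atp12a and Tgm3 of the distal list. Colour gives the library, shape the class, and bars are 95% counting intervals. Hoxb3 to Hoxb7 lie below 0 in every combination, Hoxd11 and Hoxd13 above 2, and Hoxa3, Hoxa5 and Hoxa7 between −0.49 and 0.85.

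Genes known to mark position within the colon were then read in the same cells. Mettl7b, on the proximal list, was lower in cells with a Hoxb13 UMI in all 6 combinations (−1.84 to −0.54). Slc10a2, the apical bile acid transporter, was at 45.6 against 216 CPM (−2.25) and 12.98 against 48.9 CPM (−1.91) in colonocyte-like cells. Fabp6, a bile acid binding protein, was at 207 against 636 CPM (−1.62) in the library with the whole-epithelium label but at 46.2 against 9.67 CPM (2.26) in the library with the GFP label. Aqp4, a water channel, did not follow the proximal list (0.02 to 1.40), nor did B4galt1 and Ang4, whose signs differed between combinations. In the library with the whole-epithelium label 1 of 6 (stem/TA-like), 1 of 7 (goblet-like) and 3 of 7 (colonocyte-like) proximal genes were higher with Hoxb13. Their medians were −0.425, −0.64 and −1.20. In the library with the GFP label 4, 3 and 4 of 7 were higher, with medians of 0.02, −0.19 and 0.02. The proximal list thus had no common direction there.

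Distal genes went with Hoxb13 most clearly in colonocyte-like cells. Atp12a, the colonic proton and potassium pump, was at 767 CPM with and 31.6 CPM without a Hoxb13 UMI in the library with the whole-epithelium label (4.60) and at 278 and 48.1 CPM in the library with the GFP label (2.53). Tgm3, a transglutaminase, was at 1222 and 71.7 CPM (4.09) and at 417 and 48.8 CPM (3.098). Fxyd4, a regulator of the sodium pump, was at 304 and 4.80 CPM (5.99) and at 39.1 and 4.31 CPM (3.18). Of the distal list 7 of 8 genes were higher in the first library (median 2.42) and 8 of 8 in the second (median 1.94). In stem/TA-like cells 5 of 8 and 6 of 7 were higher (medians 0.91 and 0.65). Of the gut identity factors, Osr2, a zinc-finger factor, was lower in all 6 combinations (−3.08 to −2.20) and Cdx2, the intestinal homeobox factor, in all 6 (−1.29 to −0.62). Foxa2 was higher in all 6, 5 of them with an interval above 0 (0.07 to 2.40).

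Between the libraries, over all kept cells, both position lists were lower on balance in the library with the GFP label. Of the proximal list 2 of 7 genes were higher and 5 lower (median −0.71). Mettl7b at 347 and 212 CPM (−0.71), Slc10a2 at 48.2 and 13.1 CPM (−1.88) and Fabp6 at 202 and 27.2 CPM (−2.89). B4galt1 was at 51.7 and 51.4 CPM (−0.01). Against these, Aqp4 was at 308 and 617 CPM (1.00) and Ang4, an antimicrobial ribonuclease of crypt secretory cells, at 9.86 and 1130 CPM (6.84).

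Of the 9 distal genes with at least 50 UMIs, 2 were higher and 7 lower (median −0.77). Fxyd4 was at 40.7 and 6.34 CPM (−2.68), Tgm3 at 173 and 63.2 CPM (−1.46), Insl5, a hormone of distal enteroendocrine cells, at 79.3 and 35.9 CPM (−1.15), and Atp12a at 86.8 and 45.5 CPM (−0.93). Scnn1b was at 1.86 and 1.09 CPM (−0.77), Hsd11b2 at 288 and 183 CPM (−0.65) and Prdx6 at 1010 and 970 CPM (−0.06). Cldn8 was at 42.0 and 45.6 CPM (0.12), and Ly6g at 58.4 and 230 CPM (1.98). Scnn1g had 3 UMIs in each library. All genes tested had a median of −0.02. The lists were chosen with earlier results of these data in view. A proximal and a distal list that are both lower give no single order of the libraries along the colon. By class, the proximal and distal medians were −0.84 and −0.08 in stem/TA-like cells and −0.42 and −1.39 in goblet-like cells. They were −0.35 and −0.39 in colonocyte-like cells and −1.09 and −0.67 in enteroendocrine-like cells. Which list was lower by more thus differed between classes. Over all kept cells the 10 genes of the small intestine list summed to 38.95 and 47.0 CPM. Of them 5 had at least 50 UMIs, 2 higher and 3 lower in the library with the GFP label, with Gata4 past 2-fold higher and Sis, a brush border disaccharidase, past it lower (378 and 35 UMIs, −3.09). Most of the sum was Rbp2, a retinol binding protein (18.8 and 31.6 CPM, 0.75), and Alpi, an intestinal alkaline phosphatase (14.7 and 11.6 CPM, −0.34). Others were at few UMIs, such as Apoa4 (0 and 4), Lct (8 and 1) and Defa24 (0 and 1).

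Of the 29 other Hox genes 14 had at least 50 UMIs, 8 of them higher and 6 lower in the library with the GFP label (median 0.05). Those past 2-fold, Hoxb2 (205 and 37 UMIs, −2.12) and Hoxd8 (165 and 37 UMIs, −1.81), were both lower. Hoxd9, with 14 and 31 UMIs (1.49), was under the 50 UMIs needed to be counted. Hoxb3 (12.6 and 7.41 CPM, −0.77) and Hoxb8 (11.8 and 8.33 CPM, −0.50) were lower too, and Hoxa6 (0.819 and 1.19 CPM, 0.54), Hoxa5 (13.4 and 18.1 CPM, 0.43) and Hoxa7 (46.4 and 60.8 CPM, 0.39) were higher. The HoxC genes were nearly absent: Hoxc10, Hoxc11, Hoxc12 and Hoxc13 had 0 UMIs in both libraries, a count that allows up to 0.0276 CPM in the shallower library, and Hoxc6 had 7 and 4. Of the non-coding RNAs of the clusters Hoxaas3 was at 17.4 and 30.4 CPM (0.81), and Hottip, which lies beyond Hoxa13, at 6.70 and 4.79 CPM (−0.48). Hoxb5os (2.94 and 1.24 CPM, −1.25) and Hoxb3os (0.631 and 0.138 CPM, −2.19) were lower.

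Hox cofactors were measured as well. Meis3 was at 2.61 and 1.24 CPM (−1.07), while Pknox1 was at 13.4 and 14.6 CPM (0.12). Of the 16 gut identity factors 7 were higher and 9 lower (median −0.11). Onecut2 had 5 and 106 UMIs (4.75). Cdx2 was at 158 and 174 CPM (0.15), Osr2 was at 54.1 and 24.7 CPM (−1.13) and Gata4 at 0.370 and 1.64 CPM (2.15). Of the genes beside the clusters Evx1, a homeobox gene next to Hoxa13, was at 0.892 and 1.69 CPM (0.92). Skap1, a gene of T cells, was at 1.88 and 0.111 CPM (−4.09), and T/NK markers, all 11 of them lower, summed to 110 and 3.06 CPM. Their part in the value of Skap1 was not tested.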

How the data were processed

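Values are UMI counts of each gene in each barcode, deposited with no normalisation. Per the submitters' processing notes the authors used Cell Ranger 2.1.1 and the build mm10, whereas 3.1.0 stands in the matrix headers, which was left unresolved. The 2 matrices are crossed with the barcode lists in the records, and each was given to the sample whose list has its number of columns. Other columns of per-sample values: 0.

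Barcodes with fewer than 500 genes, fewer than 1000 UMIs or over 25% of UMIs from mitochondrial genes were left out. Doublets were not removed. Cells of both libraries were clustered together with scanpy 1.11.5 and leidenalg 0.10.2 (2000 variable genes, 30 principal components, 15 neighbours, resolution 1.0), with 84 Hox, position and neighbouring genes left out. Clusters were named from marker lists: at least 3 markers raised 2-fold and a mean log2 fold of at least 0.5. In the library with the whole-epithelium label 28.7% of kept cells stayed unnamed, and 36.3% in the library with the GFP label. UMIs were summed per class and given as CPM. Sums carry exact Poisson, ratios exact conditional binomial and shares Clopper-Pearson 95% intervals, for counting error only. PCR duplicates are removed by UMIs. Genes with at least 50 UMIs over both libraries were compared between libraries. The ratio script was tested on simulated data.

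All 10 members were reported, with every gene of the proximal and distal lists that passed and up to 4 genes each way of the others. Cdx2 and the genes opposed to Hoxb13 were named after their values were seen. The members and lists were chosen with earlier results of these data known. Where 2 rows share a symbol the first was used, and Hoxd4, listed that way, is not reported. Some other genes of the lists are counted but not reported here by name. Promoter windows came from RefSeq (8 of 10 members matched). Alternatives changed the barcode filter, the scaling, the depth and the clustering.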

Additional observations from a re-analysis of the deposited data

Results flagged for a closer look

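Barcodes that the filter left out, 6205 of the library with the whole-epithelium label and 7808 of the library with the GFP label, also held Hoxb13. It stood at 62.5 CPM (59.5 to 65.6) in the first and 43.9 CPM (42.0 to 46.0) in the second, far above the limits that a count of 0 allows there (0.114 and 0.0718 CPM). Of these barcodes 86.0% and 100% had over 25% mitochondrial UMIs. The order of the libraries was that of the kept cells. No empty barcodes were used here, so a part played by free RNA was not tested.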

How the results depend on the processing

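In all 594 alternative values were computed, of which 478 moved by less than the counting interval and 116 by more. None of the 74 alternatives to member ratios past 2-fold turned in sign. The Hoxb13 share of group 13 UMIs over all kept cells differed by −4.97 percentage points, and by −3.72 with at most 10% mitochondrial UMIs and −6.74 with equal weight per cell. In stem/TA-like cells it differed by −2.34 points, and by 8.77 at resolution 0.5, 0.37 at resolution 2.0 and 0.38 with the libraries clustered separately. In colonocyte-like cells the difference was −5.87 points, and −1.70 with at most 10% mitochondrial UMIs, −2.12 with cells thinned to 2000 UMIs and −3.80 at resolution 0.5. In enteroendocrine-like cells it was −5.55, −20.7 after thinning to 2000 UMIs and −12.3 with equal weight per cluster. The proximal list's median of −0.71 became −0.83 with no filter on barcodes, −0.84 with at most 10% mitochondrial UMIs, −0.65 with equal weight per cell and −0.63 after thinning. The cause was not tested. Over all kept cells Hoxb13 stayed lower in the library with the GFP label in all 8 alternatives (−0.54 to −0.17), while Hoxd10, Hoxd12, Hoxd13, Hoxa10 and Hoxa13 each turned in 1 of 8. Equal weight per cluster, an alternative chosen after seeing the data, left Hoxb13 at 0.59 in stem/TA-like and −0.85 in colonocyte-like cells. Scaling by the median ratio over genes, in place of the total, moved colonocyte-like ratios by the class median of −0.11 (Hoxb13 −0.87). Counting genes from 20 UMIs gave 604 genes past 2-fold higher and 1526 lower, where 428 and 1074 had been found. With no filter on barcodes there are no class values, because left-out barcodes had no class. No paired analysis was possible because each group has 1 library.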
